A study of Mus musculus with 5 samples.

Results

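This account describes JunB binding and H3K27ac around 10 mouse genes of interleukin-6 (IL-6) family signalling: the ligands Il6, Lif, Osm and Il11, the receptors Il6ra, Lifr and Osmr, the shared receptor subunit Il6st, the transcription factor Stat3 and the feedback inhibitor Socs3. They are 10 of the 21938 protein-coding genes of the GENCODE M21 annotation (mouse build mm10) on chromosomes 1 to 19, X and Y. Every peak whose edge lay within 50 kb of any annotated transcription start site (TSS) of these genes was taken. Peaks within 3 kb of a TSS were called promoter peaks and the others distal. The study measured binding by CUT&RUN, in which an antibody-tethered nuclease releases DNA beside the bound protein for sequencing, in muscle stem cells (MuSCs) freshly isolated from mouse muscle. There were 3 JunB libraries labelled Young (biological replicates, here young 1, young 2 and young 3), 1 JunB library labelled Aged and 1 H3K27ac library whose donor age the labels do not give. The labels give no strain, sex, genotype or age in months, and no treatment in the sample records, although the series text speaks of DMSO- and MVC-treated mice. The sample labels were followed. With 1 aged library no test between the ages was possible. Differences are therefore given against the spread of the 3 young libraries.

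IL-6 family cytokines bind a ligand-specific receptor together with the common signal-transducing subunit gp130, the product of Il6st, and activate JAK kinases and STAT3. STAT3 induces Socs3, whose product binds gp130 and JAK and shuts the signal down. In muscle these cytokines come from stem cells, fibres and infiltrating cells, and the pathway is known for its role in the expansion and differentiation of MuSCs. JunB is a subunit of the AP-1 transcription factor, which recognizes the palindrome-like sequence TGACTCA. H3K27ac marks active promoters and enhancers.

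The authors' lists held 9534, 4884 and 3863 peaks in young 1, 2 and 3, 14123 in the aged library and 39865 for H3K27ac. The weakest peaks listed had a −log10 p of 3.01 in young 1 and in the aged library, against 5.33 in young 2 and 5.22 in young 3, so the 4 JunB lists differ in how far down they reach. The read depth of each library is unknown here, because the peak lists hold no counts. Each library pooled many cells, so fewer cells with a bound site and weaker binding per cell cannot be told apart. As a check of the cell type, 9 of 12 MuSC marker genes had an H3K27ac promoter peak (Myod1 and Megf10 among them, but not Pax7, Myf5 or Calcr), and all 12 had one within 50 kb, where 49.8 and 76.6% of all protein-coding genes had one at these distances. Of other lineages, 2 of 5 fibro-adipogenic, 1 of 5 leukocyte, 2 of 4 endothelial, 1 of 3 smooth muscle and 1 of 4 myofibre markers had an H3K27ac promoter peak. Dcn, Col15a1, Csf1r, Pecam1, Tek, Acta2 and Myh1 were those with a promoter peak. Within 50 kb, 4 of 5 fibro-adipogenic, 2 of 5 leukocyte, 3 of 4 endothelial, 3 of 3 smooth muscle and 3 of 4 myofibre markers had an H3K27ac peak. The part of other cells in the peaks was not tested.

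JunB was found within 50 kb of Lif, Il6ra, Osmr, Il6st, Stat3 and Socs3 in every library, whereas a peak at the Il6 promoter was listed in the aged library alone. Within 50 kb of the 10 genes there were 19 JunB peaks in young 1, 14 in young 2, 10 in young 3 and 30 in the aged library, a young mean of 14.3 ± 4.51 (SD, n = 3). The aged count lay above all 3 young counts. Per 1000 peaks of a library, however, the aged value of 2.13 was within the range of the young ones, 2.52 ± 0.455 (SD, n = 3). Of these peaks 2, 2, 2 and 4 were promoter peaks. The map of peaks by distance from the start sites shows every one.

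**Figure D1:**
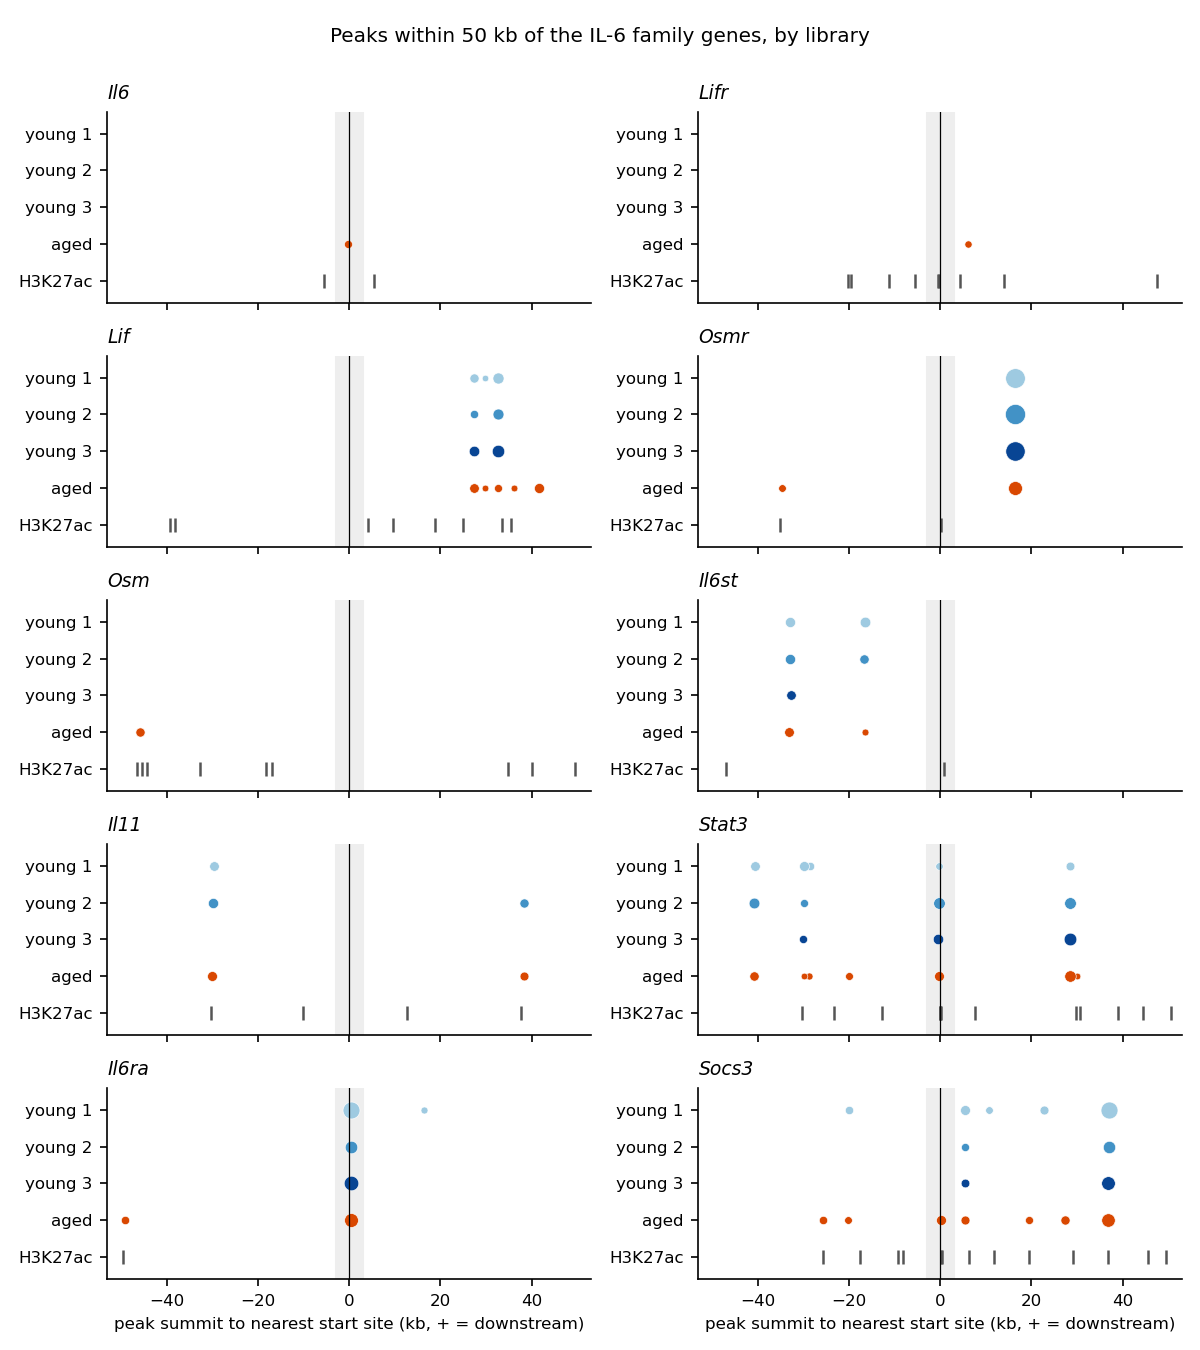
Peaks within 50 kb of the 10 IL-6 family genes, 1 panel per gene. The horizontal axis is the distance of the peak summit from the nearest start site in kb (positive values lie downstream, in the direction of transcription), each row is a library, circles are JunB peaks whose diameter grows with fold enrichment, vertical ticks are H3K27ac peaks, and the grey band spans 3 kb on either side of the start site. The largest circles are those of the Osmr peak in the young libraries, and Il6, Osm and Lifr have a JunB circle in the aged row only.

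A JunB promoter peak was listed at Il6ra and Stat3 in each young library, that is at 2 of 10 genes, where 11.0%, 7.74% and 5.91% of all protein-coding genes had one in young 1, 2 and 3. In the aged library the promoters were those of Il6, Il6ra, Stat3 and Socs3, 4 of 10 against 23.9% of all genes. Il6ra and Stat3 had the promoter peak in all 4 JunB libraries, as did 4.36% of all genes. Il6 and Socs3 had one in the aged list but in none of the young lists, as did 13.1% of all genes, while none of the 10 had one in a young but not in the aged library (1.94% of all genes). H3K27ac promoter peaks were listed at Lifr, Osmr, Il6st, Stat3 and Socs3, 5 of 10 against 49.8% of all genes. Only Stat3 and Socs3 of the 10 had promoter peaks of both kinds in any library.

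Within 50 kb, 7 of the 10 genes had a JunB peak in young 1 (40.4% of all genes), 7 in young 2 (27.5%), 6 in young 3 (23.4%) and 10 in the aged library (58.4%). Lif, Il6ra, Osmr, Il6st, Stat3 and Socs3 had one in all 4 libraries, 6 of 10 against 19.0% of all genes. Il11 had one in young 1, young 2 and the aged library. Il6, Osm and Lifr had a peak in the aged list but in none of the young lists, 3 of 10 against 20.6% of all genes, and no gene had one in a young library alone (6.09%). All 10 had an H3K27ac peak within 50 kb, as did 76.6% of all genes. When the same number of strongest peaks, 3800, was taken from each library, the Il6 promoter peak and the Osm and Lifr peaks were no longer among the aged peaks, and the Socs3 promoter peak was.

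**Figure D2:**
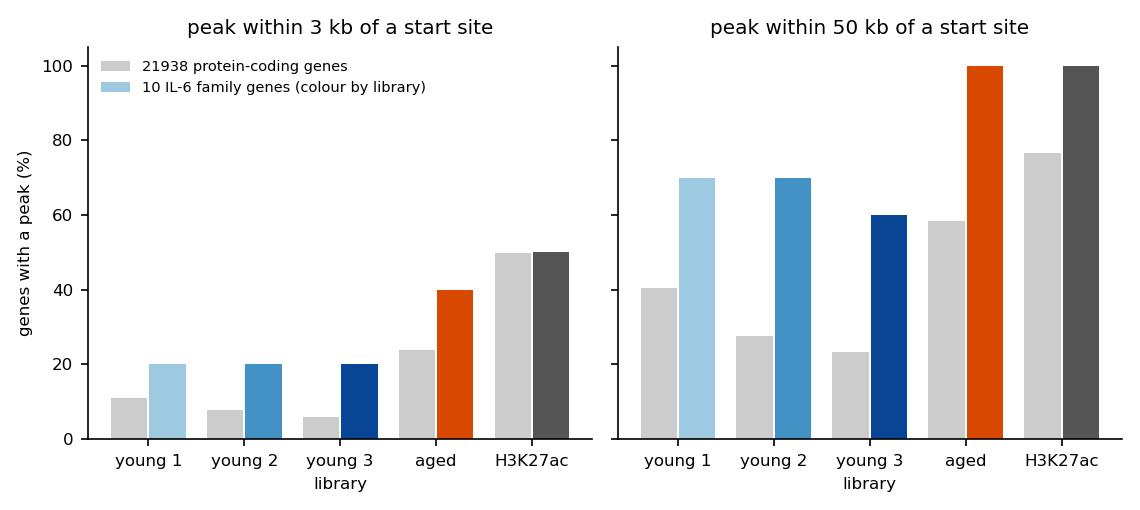
Percentage of genes with a peak within 3 kb (left) and within 50 kb (right) of a start site, by library. Grey bars are the 21938 protein-coding genes and coloured bars the 10 IL-6 family genes, for which each gene adds 10 percentage points. The coloured bar is the higher of the pair in every JunB library, and the bars for H3K27ac promoter peaks are nearly level at 50 and 49.8%.

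The JunB peaks of the 4 libraries merged into 33 regions around the 10 genes, of which 4 were promoter regions and 29 distal. This split has no share over all JunB regions beside it, and the window takes in far more distal than promoter sequence. Of the 33 regions, 10 were held by all 4 libraries, where 13.1% of the 18879 JunB regions of the genome were. A further 13 were held by the aged library alone (45.0% of all regions) and 3 by young libraries alone, in each case young 1 (25.8% of all regions). The nearest protein-coding TSS was that of the IL-6 family gene for 21 of the 33 regions and for 8 of the 10 held by all libraries. For the other 12 it belonged to a neighbour such as Stat5a, Cavin1, Pgs1 or Atp8b2, so that such a peak cannot be assigned to the family gene by position alone.

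Il6 encodes the founding cytokine of the family and lies at chr5:30013114-30019981 on the plus strand. Its only JunB region, chr5:30012820-30013153, was listed in the aged library with a summit 216 bp upstream of the TSS, at a fold enrichment of 4.79 over background as scored by the authors' peak caller, a −log10 p of 6.87 and a −log10 q of 3.60. This peak ranked at 53.7% of the aged list, ordered from the strongest. The young lists had no peak within 50 kb. The region did not overlap H3K27ac. The nearest H3K27ac peak was 5060 bp away, and the gene had H3K27ac peaks on either side of its promoter, with summits 5434 bp upstream and 5345 bp downstream and folds of 3.06 and 3.83. The region holds 1 copy of TGACTCA, 30 bp from the summit. The stretch from the start of the region to 100 bp past the summit is printed because, of the aged-only promoter peaks at Il6 and Socs3, this one has the AP-1 motif (mm10, plus strand, with the motif in capitals, here read as TGAGTCA from the opposite strand).
Il6 chr5:30012820-30012998: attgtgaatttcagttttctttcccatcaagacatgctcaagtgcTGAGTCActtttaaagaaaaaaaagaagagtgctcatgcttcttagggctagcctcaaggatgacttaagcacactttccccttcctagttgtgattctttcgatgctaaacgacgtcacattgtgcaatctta
The 10-letter NF-kB motif had 1 match in the region, 176 bp downstream of the summit and outside the printed stretch.

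Lif, which encodes leukemia inhibitory factor, lies at chr11:4257557-4272514 on the plus strand and had no promoter peak of JunB or H3K27ac. Its JunB peaks were all downstream of the gene. The regions at 27278 bp (chr11:4294149-4295066) and 32557 bp (chr11:4299493-4299898) from the nearest TSS were held by all 4 libraries. Fold enrichment at the former was 5.82, 4.93 and 7.12 in young 1, 2 and 3 and 6.18 in the aged library, which is within the young range. At the latter it was 7.65, 7.50 and 8.99 in the young libraries, 8.05 ± 0.819 (SD, n = 3), and 4.71 in the aged library, below all 3. A region between them was held by young 1 and the aged library, and regions at 36050 and 41624 bp by the aged library alone. Lif had 8 H3K27ac peaks, the strongest with a fold of 5.02 at 4094 bp downstream of the TSS, and only the JunB region at 36050 bp overlapped one. The region at 32557 bp ended 103 bp short of an H3K27ac peak. The region at 27278 bp held 2 copies of TGACTCA, at 216 and 408 bp from its summit.

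Osm, which encodes oncostatin M and lies 21137 bp from Lif by their nearest start sites, had no JunB peak in young 1, 2 and 3 and 1 in the aged one. That peak, 45765 bp upstream, lay inside Tbc1d10a, overlapped H3K27ac and had a fold of 5.84. Osm had 9 H3K27ac peaks, none within 3 kb. Several of them are also counted for Lif, among them the strongest, with a fold of 5.02, which lies inside the Lif gene. Il11, which encodes interleukin-11, had 2 JunB regions, each at the promoter of a neighbour. The region 29744 bp upstream (chr7:4812394-4813098) covered the Ube2s TSS with folds of 6.23 in young 1, 6.82 in young 2 and 6.51 in the aged library, and the region 38288 bp downstream (chr7:4739430-4740173) covered the Kmt5c TSS with folds of 5.79 in young 2 and 5.51 in the aged library. Both overlapped H3K27ac, and young 3 had neither. No JunB or H3K27ac peak was listed within 3 kb of Osm or Il11.

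Il6ra encodes the IL-6 receptor subunit and lies at chr3:89864059-89913196 on the minus strand. It had the strongest JunB promoter peak of the family, in the first intron at chr3:89912470-89912867, with a summit 490 bp downstream of the TSS. Fold enrichment was 13.3 in young 1, 9.05 in young 2 and 11.0 in young 3, and 10.3 in the aged library, within the young range. The 4 summits lay within 12 bp of each other. No H3K27ac peak was listed within 3 kb of an Il6ra start site, and the nearest to the JunB region was 49360 bp away, near Atp8b2, where the aged library also had a JunB peak. The Il6ra region held no TGACTCA within 50 bp of its summit but a copy on either side of it, 192 bp before and 187 bp after in genome order, and the sequences of both copies and of the summit between them are printed to show this spacing (mm10, plus strand, motif in capitals).
Il6ra chr3:89912460-89912500: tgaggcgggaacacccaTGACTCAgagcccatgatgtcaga
Il6ra summit chr3:89912642-89912702: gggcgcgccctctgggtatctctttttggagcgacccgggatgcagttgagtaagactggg
Il6ra chr3:89912839-89912879: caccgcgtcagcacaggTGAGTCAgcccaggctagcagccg

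Lifr, which encodes the receptor for LIF, had 9 H3K27ac peaks, 2 of them within 3 kb of a TSS with folds of 3.04 and 4.0. Its only JunB peak, at chr15:7146390-7146650 in an intron 6021 bp downstream of the nearest TSS, was in the aged library with a fold of 3.99 and a −log10 q of 2.02. It lay 668 bp from an H3K27ac peak and held no TGACTCA. Osmr, which encodes the oncostatin M receptor and lies at chr15:6813577-6874969 on the minus strand, had the strongest JunB peak of the family. The region, chr15:6857643-6858267, is 16401 bp downstream of the nearest TSS, in an intron of the coding transcript that a non-coding Osmr transcript retains as exon. Fold enrichment was 15.8 in young 1, 16.3 in young 2 and 15.6 in young 3, 15.9 ± 0.353 (SD, n = 3), and 10.4 in the aged library. The aged value was below all 3 young values. Ranked by p, the peak stood at 3.65, 6.33 and 6.39% of the young lists and at 2.95% of the aged list. Each fold was also divided by the median fold of its library, which depends on how far down the list reaches. The young values were then 3.04, 2.10 and 1.92 and the aged value of 2.11 was within them. The nearest H3K27ac peak was 15330 bp away, at the Osmr promoter, which had H3K27ac with a fold of 3.42 and no JunB. The region held 1 copy of TGACTCA, 116 bp from the summit, and 3 matches to the STAT motif TTCNNNGAA, at 122, 259 and 371 bp. The motif copy and the summit of this strongest peak are printed here (mm10, plus strand, AP-1 motif in capitals).
Osmr chr15:6857720-6857760: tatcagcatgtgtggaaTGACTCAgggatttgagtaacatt
Osmr summit chr15:6857826-6857886: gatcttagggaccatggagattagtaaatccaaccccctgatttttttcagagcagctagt

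Il6st, which encodes gp130 and lies at chr13:112464070-112510086 on the plus strand, had its JunB peaks upstream of the gene. Its H3K27ac peaks were at the promoter, with a fold of 3.23, and 47042 bp upstream, with a fold of 3.35. The region 32950 bp upstream, chr13:112430714-112431757, was held by all 4 libraries at folds of 6.75, 6.80 and 6.11 in young 1, 2 and 3 and 6.26 in the aged library, within the young range. A region 16580 bp upstream (chr13:112447316-112447766) was held by young 1, young 2 and the aged library at folds of 7.19, 5.93 and 3.63. Neither overlapped H3K27ac, and the nearest H3K27ac peaks were 13481 and 16799 bp away. The summits of the 32950-bp region ranged over 438 bp, the widest range of the 10 regions held by all libraries. This region is a tandem repeat with a period of 31 bp. Shifted by 1 period, 93.4% of its bases were identical, against a median of 30.9% over periods of 10 to 120 bp. It held 6 copies of TGACTCA spaced 186, 93, 93, 248 and 248 bp apart, which are 6, 3, 3, 8 and 8 periods. How the authors' alignment placed reads within the repeat is not given in the sources used here. A stretch of 4 periods around the central summit is printed because the motif copies recur within the repeat (mm10, plus strand, AP-1 motif in capitals).
Il6st chr13:112431071-112431194: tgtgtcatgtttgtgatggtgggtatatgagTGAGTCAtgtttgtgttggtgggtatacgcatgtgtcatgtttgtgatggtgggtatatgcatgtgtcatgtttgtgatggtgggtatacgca
In this stretch the second of the 4 periods carries the motif.

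Stat3 lies at chr11:100885098-100939540 on the minus strand and had 7 JunB regions, a number that 1.41% of protein-coding genes reach or exceed. Only the promoter region had the Stat3 TSS as its nearest protein-coding TSS. For the others the nearest was that of Stat5a or Cavin1. Stat3 has 14 annotated start sites, 4 of them of protein-coding transcripts, and a peak near any of the 14 was counted. The regions at Stat5a lie past the end of Stat3 and were counted only through start sites inside the gene. With start sites of protein-coding transcripts alone, the peaks of the 10 genes numbered 18, 13 and 9 in young 1, 2 and 3 and 28 in the aged library. At its promoter, chr11:100939564-100940082, the summit was 175 bp upstream of the TSS and fold enrichment was 4.24, 8.18 and 7.07 in the young libraries, 6.49 ± 2.03 (SD, n = 3), and 6.47 in the aged library. The aged value was within the young range. This promoter region overlapped H3K27ac with a fold of 4.0, but only through the edge of its aged peak. The young peaks and every summit lay outside the H3K27ac peak. The promoter region held no TGACTCA but 1 copy of the related CRE sequence TGACGTCA, 106 bp from the summit. A region 28507 bp downstream (chr11:100861657-100861974) lies over a coding exon of Stat5a, a STAT that other cytokines use, 1172 bp from its TSS, with folds of 5.40, 8.22 and 9.14 in young 1, 2 and 3 and 8.01 in the aged one. A region 29799 bp upstream (chr11:100969098-100969729), 822 bp from the Cavin1 TSS, overlapped H3K27ac. Its folds were 6.52, 4.74 and 4.86 in young 1, 2 and 3 and 3.41 in the aged one, below all 3. These peaks were low in their lists, at ranks of 30.2, 95.1 and 97.2% in young 1, 2 and 3 and 88.7% in the aged library. The aged peak had a −log10 q of 1.56, under the minimum of 2 tried as an alternative. The region 40840 bp upstream (chr11:100980113-100980559) was held by young 1, young 2 and the aged library at folds of 6.23, 7.30 and 5.96.

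Socs3, at chr11:117966079-117970047 on the minus strand, had the most JunB regions of the family, 9, a number that 0.520% of protein-coding genes reach or exceed, and the most H3K27ac peaks, 13, which 1.08% do. The JunB regions upstream of the gene had the Pgs1 TSS nearest. The strongest JunB region, 36892 bp downstream at chr11:117932027-117932490, had folds of 13.3, 8.86 and 10.1 in young 1, 2 and 3 and 9.95 in the aged one. A second, 5430 bp downstream at chr11:117963263-117963924, had folds of 6.51, 4.80 and 5.33 in young 1, 2 and 3 and 5.57 in the aged one. In both the aged value was within the young range, and both overlapped H3K27ac. At 5430 bp the overlap was at the edge of the region, where the young 3 peak and every summit lay outside the H3K27ac peak. The promoter region, chr11:117968902-117969262, lay over a UTR exon with its summit 73 bp from the nearest TSS. It was in the aged list alone, at a fold of 6.60, a −log10 p of 13.5 and a rank of 14.3%, and overlapped H3K27ac with a fold of 3.68. This promoter region held no TGACTCA. The regions held by all libraries each held a copy, 92 and 164 bp from the summit, printed here as the AP-1 motifs of the gene's reproducible sites (mm10, plus strand, motif in capitals).
Socs3 chr11:117932366-117932406: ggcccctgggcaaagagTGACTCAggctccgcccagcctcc
Socs3 chr11:117963900-117963940: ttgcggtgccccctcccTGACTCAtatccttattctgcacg
The former copy lies within the H3K27ac peak and within the JunB peak of every library. The latter lies at the far end of its region from H3K27ac, whole within the young 1 peak only.

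In the 10 regions held by all libraries, young means ran from 5.37 at Stat3, 29799 bp upstream, to 15.9 at Osmr. The aged fold was below the 3 young values in 3 of the 10 (Osmr, Lif at 32557 bp and Stat3 at 29799 bp), a share to be read against 62.7% over all such regions of the genome. The median fold of the listed peaks was 5.21, 7.76 and 8.13 in young 1, 2 and 3 and 4.93 in the aged library. These medians depend on how far down each list reaches, and the young 1 and aged lists reach farther than the other lists. Values divided by the median carry that difference. Divided in this way, the aged value was below the young ones in 1 of 10 (Lif at 32557 bp, 15.5% of all such regions). It was above them in 3 of 10 (Lif at 27278 bp, Stat3 at its promoter and Stat3 at 28507 bp, 26.1% of all such regions). At Osmr and at Stat3, 29799 bp upstream, the aged value was outside the young range only for the unscaled fold. Divided by the median, it was below young 1 but above young 2 and young 3 at both. These scaled values were 2.11 against 3.04, 2.10 and 1.92 at Osmr. At Stat3 they were 0.691 against 1.25, 0.611 and 0.597.

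**Figure D3:**
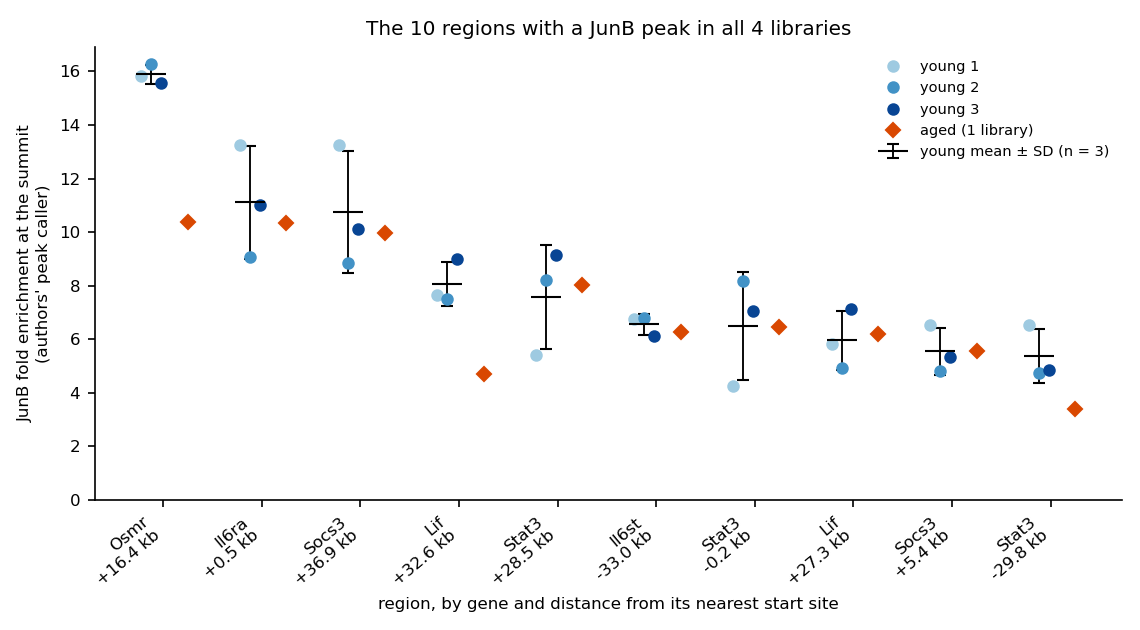
JunB fold enrichment at the 10 regions with a peak in all 4 libraries, ordered by the young mean. Circles are the 3 young libraries, black bars their mean ± SD (n = 3), and diamonds the aged library. The diamond lies below all 3 circles at Osmr, at Lif +32.6 kb and at Stat3 −29.8 kb.

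The folds of the 13 regions in the aged list alone ran from 3.41 to 6.69 with a median of 4.79, and their −log10 q from 1.36 to 9.63 with a median of 3.66. In the aged list they ranked between 14.3 and 95.4%. H3K27ac overlapped 7 of the 13 (36.0% of all aged-alone regions) and 4 of the 10 regions held by all libraries (69.9% of all such regions). Overlap was scored on the merged regions. At the Stat3 promoter and at Socs3, 5430 bp downstream, not every library's JunB peak reached the H3K27ac peak. Of the 33 regions 13 overlapped H3K27ac by at least 1 bp, 39.4% (exact 95% binomial interval 22.9 to 57.9%, which covers counting error only), against 42.6% of all JunB regions. The interval takes the regions as independent, which regions near the same gene are not. None of the 13 overlaps was at Il6, Lifr, Osmr or Il6st. They were at Socs3 (5 of 9 regions), Stat3 (3 of 7), Il11 (2 of 2), Lif (1 of 5), Osm (1 of 1) and Il6ra (1 of 3). At Il11, Osm and Il6ra every overlapping region had a neighbour's TSS nearest. So did the overlapping Stat3 regions other than its promoter and the Socs3 region 25655 bp upstream. The H3K27ac library has no replicate.

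TGACTCA, searched on both strands, was inside 16 of the 33 regions (25.2% of all JunB regions) and inside 6 of the 10 held by all libraries (59.0% of all such regions). The 16 regions held 25 copies and belonged to 8 of the genes, all but Il11 and Lifr. Few copies were at the summit: 4 of the 25 lay within 50 bp, 17 at 51 to 250 bp and 4 farther, with a median of 122 bp. The Il6st repeat held 6 of the 25 copies, among them a copy 15 bp from the summit. Within 50 bp of the summit the motif was in 3 of 19, 1 of 14 and 1 of 10 of the family's peaks in young 1, 2 and 3. In the aged library it was in 3 of 30. These are 15.8, 7.14, 10 and 10%, against 5.24, 5.87, 7.21 and 3.59% of all peaks. Over all peaks of a library the copies were densest 175 to 200 bp from the summit in the young libraries, at 1.65, 2.39 and 2.21 copies per kb. In the first 25 bp there were 0.526, 0.574 and 0.711 copies per kb. In the aged library the densest distance was 200 to 225 bp, with 1.17 copies per kb against 0.332 in the first 25 bp, while H3K27ac peaks had 0.282 and 0.187. Median peak widths were 316 to 336 bp in the JunB lists, so the densest distance is close to that from a central summit to the peak edge. Counting copies within 250 bp of the summit, also just outside the peak, 8 of the 10 regions held by all libraries had one, where 57.6% of all such regions did. Copies on both sides of the summit, as at Il6ra, were found in 3 of the 10 (Il6ra, Il6st and Lif at 27278 bp) and in 13.0% of all such regions. This wider search was chosen after the data were seen. The STAT, NF-kB and CRE matches given above for Osmr, Il6 and Stat3 have no share over all regions beside them. The Socs3 promoter region also held an NF-kB and a STAT match, and further regions held STAT matches. Within 50 bp of the summit no JunB peak of the family had the NF-kB or CRE motif. The STAT motif was there in 0% in each young library and 10% in the aged one, against 3.20, 2.64, 2.53 and 3.07% of all peaks.

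**Figure D4:**
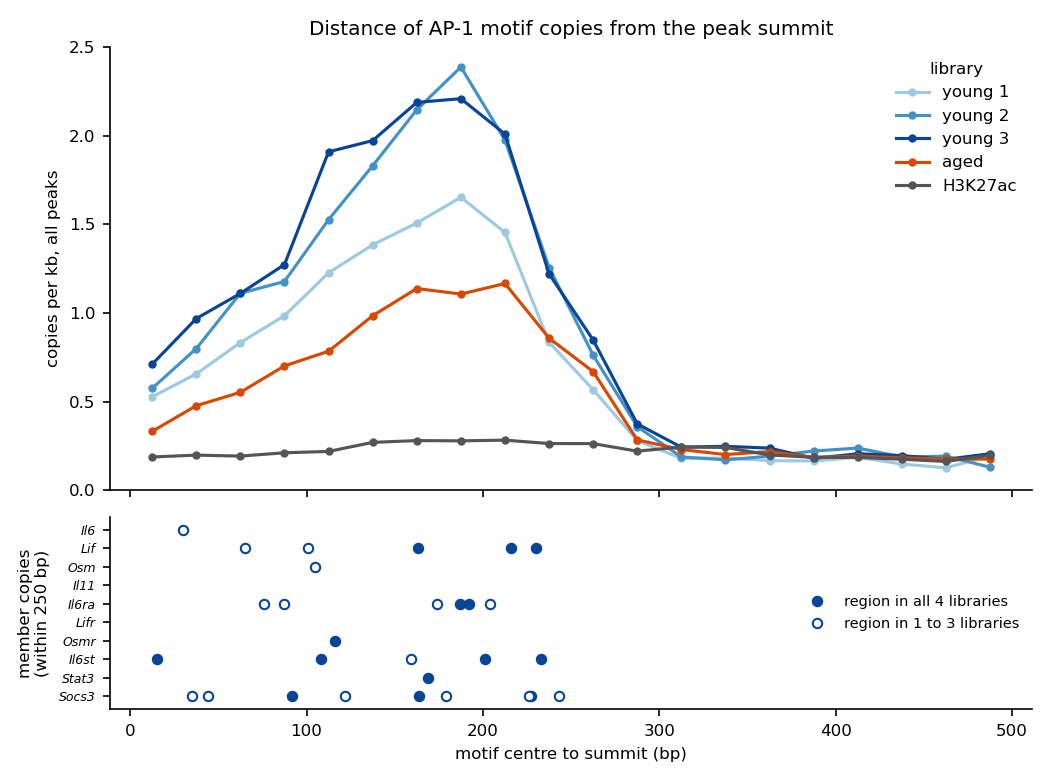
Distance of TGACTCA copies from the peak summit. The upper panel gives copies per kb over all peaks of each library in bins of 25 bp, and the lower panel the copies within 250 bp of the summit in the family's regions, filled where the region is held by all 4 JunB libraries. The JunB curves are highest between 175 and 225 bp and the H3K27ac curve stays under 0.3 copies per kb.

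Among 38 other genes of the pathway, JunB promoter peaks were listed at 12, 6 and 6 in young 1, 2 and 3 and at 21 in the aged library, and H3K27ac promoter peaks at 26, where 11.0, 7.74, 5.91, 23.9 and 49.8% of all genes had one. In all 4 JunB libraries they were at 5, namely Clcf1, a gp130 ligand, Stat5a, Junb itself, Mcl1, a survival factor of the BCL2 family, and Pim1, a STAT-induced kinase, to be read against the 4.36% of all genes given above. By role these were 1 of 7 ligands, none of 4 receptors, 1 of 6 kinases and STATs, none of 7 feedback genes and 3 of 14 response genes. The Stat5a peak is also the region counted above for Stat3 at 28507 bp downstream. Il11ra1 and Cntfr, both counted as receptors, had the same highest promoter fold, 5.40 in young 1 and 7.67 in the aged library. Counts of genes are therefore not counts of separate peaks. The feedback genes had JunB promoter peaks at 1, 0 and 0 in the young libraries and at 5 of 7 in the aged library, namely Socs1, Socs2, Cish, Pias3 and Ptpn2. The aged list is the longest of the 4, and 23.9% of all genes had a promoter peak in it, against 5.91 to 11.0% in the young lists. Within 50 kb, 17 of the 38 had a JunB peak in all 4 libraries, as did 19.0% of all genes.

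By the highest fold within 50 kb in the 5 libraries, on a scale of log2 of 1 plus the fold, the genes most like Osmr among all protein-coding genes were Rnf19b and Arhgap42, at Euclidean distances of 0.108 and 0.111. For Il6ra they were Tnrc6b and Pold4 (0.214 and 0.243), for Il6st Sorbs3 and Ube2t (0.214 and 0.225), for Stat3 Cblb and Ttll1 (0.129 and 0.157), and for Lif Mkks and Slx4ip (0.0962 each). For Socs3 they were Atp8b2, whose window holds the Il6ra promoter peak, and Pold4 (0.149 and 0.209). The highest fold of Pold4 in each JunB library equals that of the Clcf1 promoter peak.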

How the data were processed

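JunB and H3K27ac CUT&RUN libraries of MuSCs were aligned by the authors to mm10 with Bowtie2, and peaks were called per library with MACS2. The versions and the control are not given in the sources used here. The deposited lists give each peak's position and summit, a fold enrichment (a ratio over local background), a −log10 p-value and a −log10 q-value, and an integer score, which was not used. H3K27ac was unreplicated.

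Only peaks on the autosomes, X and Y entered (9387, 4805 and 3800 in young 1, 2 and 3, 14056 aged, 39492 H3K27ac) and joined to GENCODE M21 start sites in Python 3.11.15 (numpy 2.4.6, scipy 1.17.1). JunB peaks of the 4 libraries were merged where they overlapped or touched. A region was shared with H3K27ac at an overlap of 1 bp. The background is the share of 21938 protein-coding genes, or of 18879 merged regions, that meet the same rule. Motifs were searched on both strands of the mm10 genome sequence within 50 bp of the summit and in whole peaks. Scripts were tested on simulated data. All 10 genes are named, with full values for promoter regions and for regions held by at least 3 JunB libraries. The genes and lists were chosen with earlier results of these data known. Alternatives were windows of 20 and 100 kb, promoter limits of 1 and 5 kb, a −log10 q minimum of 2, the 3800 strongest peaks of each library, merging across 200 bp, other motif distances and leaving out each young library.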

Additional observations from a re-analysis of the deposited data

How the results depend on the processing

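Of 145 recomputed values, 123 kept their side of the limit set (within 1.5 times for counts, within the exact binomial interval for shares) and 22 moved. With a window of 20 kb, JunB peaks near the 10 genes numbered 8, 5 and 4 in young 1, 2 and 3 and 10 in the aged one, and the regions 13 in all, 4 of all libraries and 5 of the aged library alone. With the 3800 strongest peaks of each library there were 11 and 9 peaks in young 1 and 2 and 13 in the aged library, 1 gene with a promoter peak in young 1 (Il6ra), and 16 regions, 5 of all libraries and 3 of the aged library alone. The AP-1 motif was in 63.2, 35.7, 40 and 36.7% of the family's peaks in young 1, 2, 3 and the aged library when searched anywhere in the peak, and within 250 bp of the summit, a distance chosen after the data were seen, in 73.7, 64.3, 80 and 53.3% in young 1, 2, 3 and the aged library. Leaving out each young library, regions of young libraries alone ranged from 0 (without young 1) to 3, regions of all remaining libraries from 10 to 13 and regions of the aged library alone from 13 to 16. At a −log10 q of at least 2 the same genes kept their promoter peaks, and 9 regions were held by all libraries. The region lost from that set was Stat3 at 29799 bp upstream. No paired analysis was possible because the labels number the young libraries only, and the aged and H3K27ac groups hold 1 library each. With 1 aged library, age and library cannot be told apart, and the lists give no read depth.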
